A study of Mus musculus with 6 samples.

Results

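The genes described here are 9 genes of the Notch signalling pathway and of radial glia, taken by symbol from the 23235 genes in each of the authors' deposited tables. They are the receptors Notch1 and Notch2, the ligands Dll1 and Jag1, the target genes Hes1 and Hes5, and the radial glia genes Nes, Pax6 and Prom1. All 9 were found and had enough data for the authors' test in both tables. They were measured in primary mouse neurons, in whole cultures of cortical and hippocampal cells and not in sorted cells. The cultures were prepared at embryonic day 15 and kept for 17 days. They were treated with 1 uM AraC (cytosine arabinoside, which kills dividing cells) on day 5 in vitro and with lentivirus carrying short hairpin RNA (shRNA) on day 12. The labels give this history for all groups. The HDAC2 knockdown received hairpins against the histone deacetylase HDAC2, the Sp3 knockdown received hairpins against the zinc finger transcription factor Sp3, and the control is labelled only as control. Each of the 3 groups has 2 RNA sequencing libraries. Whether the 2 libraries of a group are separate cultures is not stated, and the p-values may therefore measure technical spread only. The study asked whether HDAC2 and Sp3 together regulate a set of genes.

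Notch signalling passes between touching cells. A Delta or Jagged ligand on a cell surface binds a Notch receptor on its neighbour, the receptor is cut by ADAM proteases and gamma-secretase, and the freed intracellular domain joins the DNA-binding protein RBPJ and a Mastermind coactivator at target genes. The Hes and Hey targets are repressors that hold proneural genes in check, and in the embryonic cortex this keeps radial glia, the stem cells of the cortex, from becoming neurons. Radial glia later give rise to astrocytes and oligodendrocytes, and many of their genes remain expressed in those glia.

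The authors deposited 1 expression value per gene and group, in FPKM (fragments mapped to a gene, scaled to transcript length and library size), and no value per library. No spread within a group can be given, total counts are unknown, and every error below is the standard error implied by the authors' test statistic. A gene counts as called where the authors' deposited table has q under 0.05, their p-value adjusted over the table. The middle of the fold changes was itself shifted: among genes with 1 FPKM or more, the median log2 fold change was 0.32 for HDAC2 knockdown and -0.13 for Sp3 knockdown. Fold changes below are also given relative to that median gene (centred). Their p-value is a normal p from the authors' statistic, adjusted over all genes by the Benjamini-Hochberg method. Hdac2 measured 12.3 FPKM in HDAC2 knockdown and 38.8 FPKM in Sp3 knockdown, against 49.4 FPKM in control, a centred log2 fold change of -2.32 ± 0.25 in HDAC2 knockdown. Sp3 measured 26.7 FPKM in HDAC2 knockdown and 5.82 FPKM in Sp3 knockdown, against 15.5 FPKM in control, a centred log2 fold change of -1.28 ± 0.11 in Sp3 knockdown. Each targeted gene was thus low in its own knockdown. The authors' deposited table also called Sp3 higher in HDAC2 knockdown (1.72-fold, q listed as 0) and Hdac2 lower in Sp3 knockdown (21.5% lower, q = 0.00598). After centring Sp3 kept that call (0.47 ± 0.089, with an adjusted p of 3.48e-06), and Hdac2 did not (-0.22 ± 0.11, with an adjusted p of 0.101). Scaling and a true change of most genes cannot be told apart here. Of the neuronal markers examined, all 9 measured genes were present, from 7.72 to 275 FPKM in HDAC2 knockdown, from 15.5 to 386 FPKM in Sp3 knockdown and from 10.8 to 298 FPKM in control.

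In HDAC2 knockdown all 9 had a higher FPKM than in control, and the ligand Jag1 (4.33-fold) and the stem cell surface gene Prom1 (3.55-fold) stood furthest apart. In Sp3 knockdown 8 of the 9 had a lower FPKM than in control, the target Hes5 the most (52.6% lower), and only Jag1 was higher (1.17-fold). In whole cultures, a change in the number of cells that express these genes and a change in RNA per cell cannot be told apart. The authors' deposited table called 7 of the 9 higher and 0 lower in HDAC2 knockdown, where 24.6% of all tested genes were called higher and 3.6% lower (28.2% in either direction). It called 0 of the 9 higher and 6 lower in Sp3 knockdown, where 13.2% of all tested genes were called higher and 26.1% lower (39.3% in either direction). After centring, 3 of the 9 were called higher and 0 lower in HDAC2 knockdown, against 10.2% and 7.59% of all genes (17.8% in either direction). After centring, 1 of the 9 was called higher and 4 lower in Sp3 knockdown, against 20.2% and 17.6% of all genes (37.8% in either direction). The median centred log2 fold change of the 9 was 0.58 in HDAC2 knockdown and -0.46 in Sp3 knockdown, beside -0.0044 and -0.0017 over all tested genes. Both comparisons use the same control libraries, so a control value that is off by chance moves both. The 9 genes and the lists below were chosen with earlier results of these data known. Their shares of called genes, set beside those of all genes, are therefore descriptive and not a test.

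**Figure D1:**
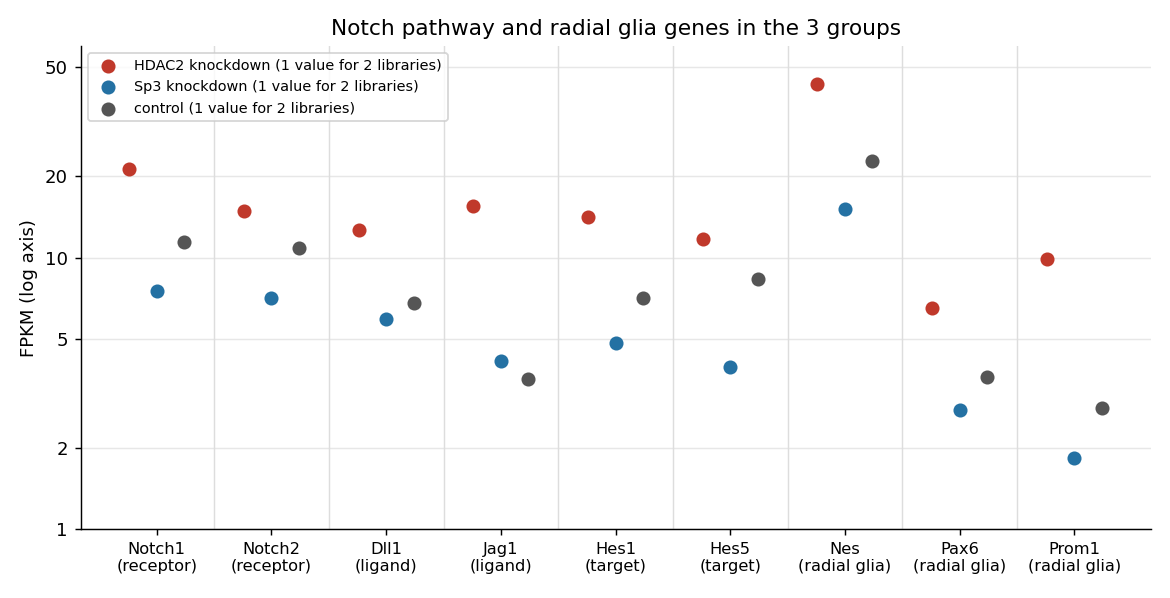
FPKM (log axis) of the 9 genes in HDAC2 knockdown (red), Sp3 knockdown (blue) and control (grey). Each point is the authors' single value for 2 libraries, so no error bar can be drawn. Red points are the highest for every gene, and blue points are the lowest for every gene except Jag1.

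Notch1 and Notch2 encode the main Notch receptors of cortical progenitors and glia. Notch1 (chromosome 2, 26313421 to 26359342 in mm9) measured 21.2 FPKM in HDAC2 knockdown and 7.50 FPKM in Sp3 knockdown, against 11.4 FPKM in control. Notch2 (chromosome 3, 97817460 to 97954290 in mm9) measured 14.8 FPKM in HDAC2 knockdown and 7.12 FPKM in Sp3 knockdown, against 10.8 FPKM in control. The receptors were thus close to each other in Sp3 knockdown and in control (Notch1 over Notch2 1.05 in both) and further apart in HDAC2 knockdown (1.43). These ratios are given without an error, and their difference between groups was not tested. In HDAC2 knockdown the authors' deposited table called Notch1 higher (q = 0.0141) but not Notch2 (q = 0.211). Relative to the median gene, neither passed in HDAC2 knockdown, with log2 fold changes of 0.58 ± 0.31 (adjusted p of 0.194) for Notch1 and 0.13 ± 0.28 (adjusted p of 0.825) for Notch2. The 95% interval reached from -0.018 to 1.18 for Notch1 and from -0.41 to 0.68 for Notch2. In Sp3 knockdown both receptors fell by nearly the same amount. The centred log2 fold change there was -0.47 ± 0.11 for Notch1 (q = 1.96e-06 in the authors' deposited table, centred adjusted p of 0.00022). For Notch2 it was -0.47 ± 0.11 as well (q = 1.06e-06 in the authors' deposited table, centred adjusted p of 0.000148).

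The receptor promoters are shown with their GC boxes, which Sp3 is known to bind. Both receptors had more GC box matches than the other genes described here that had a promoter window. The stretches end where an annotated exon begins, and the capitals mark the GC box letters GGGCGG or, on the other strand, CCGCCC. They come from RefSeq start sites on GRCm38.p6, a later build than that of the expression tables. Notch1 is read from chr2:26503825-26504072, minus strand, and Notch2 from chr3:98013288-98013526, plus strand.
Notch1: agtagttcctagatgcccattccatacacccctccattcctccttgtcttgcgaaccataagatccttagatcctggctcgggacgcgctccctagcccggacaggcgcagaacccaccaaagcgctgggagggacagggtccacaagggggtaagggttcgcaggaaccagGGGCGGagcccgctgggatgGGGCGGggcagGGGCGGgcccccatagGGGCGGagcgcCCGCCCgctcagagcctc
Notch2: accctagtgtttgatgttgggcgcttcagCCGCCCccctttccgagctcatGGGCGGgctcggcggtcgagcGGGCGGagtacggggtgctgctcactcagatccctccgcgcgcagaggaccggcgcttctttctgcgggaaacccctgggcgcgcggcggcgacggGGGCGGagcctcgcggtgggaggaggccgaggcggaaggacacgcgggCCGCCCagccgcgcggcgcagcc
Within the whole 300-base window around the start (250 bases before it and 50 after), Notch1 had 5 GC box matches and Notch2 had 7. Of 32851 mouse promoter windows of this length, 35.7% had at least 1 match and 5.49% had at least 4. Among the other genes described here, Nes had 2 matches and Prom1 1, while the windows of Dll1, Jag1, Hes5 and Pax6 had none. Prom1, Dll1 and Pax6 each had more than 1 window, and the match of Prom1 was in only 1 of its windows. Over the 11 windows of these genes, 4 had a match, a share near that of all windows. Whether GC box matches bear on the fold changes in Sp3 knockdown was not tested. A match is a run of letters and not a measured binding site.

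Dll1 and Jag1 encode ligands of the Delta and Jagged families. Jag1 (chromosome 2, 136907186 to 136942256 in mm9) measured 15.5 FPKM in HDAC2 knockdown and 4.18 FPKM in Sp3 knockdown, against 3.58 FPKM in control. It went further up in HDAC2 knockdown than any other of the 9 genes, by a centred log2 fold change of 1.80 ± 0.25 (q listed as 0 in the authors' deposited table, centred adjusted p of 4.94e-11). In Sp3 knockdown it was not called by the authors' deposited table (q = 0.24), and its centred value was 0.35 ± 0.15 with an adjusted p of 0.0405. With upper-quartile scaling in place of centring that adjusted p was 0.058. Dll1 (chromosome 17, 15504317 to 15512787 in mm9) measured 12.6 FPKM in HDAC2 knockdown and 5.94 FPKM in Sp3 knockdown, against 6.80 FPKM in control. The authors' deposited table called it higher in HDAC2 knockdown (q = 0.00155), whereas its centred value of 0.57 ± 0.24 had an adjusted p of 0.0838. In Sp3 knockdown Dll1 gave q = 0.29 in the authors' deposited table, and its centred 95% interval ran from -0.34 to 0.21. The level of Jag1 relative to Dll1 was 1.23 in HDAC2 knockdown and 0.704 in Sp3 knockdown, against 0.527 in control. By FPKM, Jag1 was thus the more abundant ligand of this pair in HDAC2 knockdown and the less abundant one in the other groups. That change of order was not tested.

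Hes1 and Hes5 encode basic helix-loop-helix repressors that are direct targets of Notch in neural progenitors. Hes1 (chromosome 16, 30065442 to 30067882 in mm9) measured 14.1 FPKM in HDAC2 knockdown and 4.83 FPKM in Sp3 knockdown, against 7.10 FPKM in control. Hes5 (chromosome 4, 154335031 to 154336480 in mm9) measured 11.7 FPKM in HDAC2 knockdown and 3.95 FPKM in Sp3 knockdown, against 8.35 FPKM in control. By FPKM Hes5 was above Hes1 in control (Hes5 over Hes1 1.18) and below it in HDAC2 knockdown (0.824) and in Sp3 knockdown (0.819). Whether this ratio differs between groups was not tested. The authors' deposited table called Hes1 higher in HDAC2 knockdown (q = 0.00198), where the centred value was 0.68 ± 0.28 with an adjusted p of 0.0701. Hes5 missed the threshold there (authors' deposited table, q = 0.156), and its centred estimate was 0.17 ± 0.27, with a 95% interval from -0.36 to 0.69. In Sp3 knockdown Hes5 had the largest fall of the 9 genes, by a centred log2 fold change of -0.94 ± 0.23 (q = 3.27e-05 in the authors' deposited table, centred adjusted p of 0.000236). The authors' deposited table also called Hes1 lower in Sp3 knockdown (q = 0.0394), but its centred value of -0.42 ± 0.22 had an adjusted p of 0.121.

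The Hes5 promoter is shown because it carries the letters bound by RBPJ, the factor through which Notch acts. It is read from chr4:154960673-154960922, plus strand, on GRCm38.p6, and the capitals mark GTGGGAA or, on the other strand, TTCCCAC.
Hes5: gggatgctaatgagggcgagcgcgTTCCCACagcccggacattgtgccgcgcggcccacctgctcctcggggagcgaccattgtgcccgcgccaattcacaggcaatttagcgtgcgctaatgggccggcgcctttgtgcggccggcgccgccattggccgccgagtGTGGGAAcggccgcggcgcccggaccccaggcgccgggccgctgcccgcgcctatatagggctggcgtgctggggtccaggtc
The matches begin 226 and 83 bases before the annotated start. Of all promoter windows 6.38% had a match to these letters and 0.256% had at least 2, and none of the other 7 genes with a window had one. Hes1 had no window among these promoters, so its promoter was not searched for these letters.

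Nes, Pax6 and Prom1 mark radial glia. Nes encodes the intermediate filament nestin, Pax6 a transcription factor of cortical progenitors, and Prom1 the membrane protein prominin-1 (CD133). Nes (chromosome 3, 87775014 to 87784373 in mm9) measured 43.5 FPKM in HDAC2 knockdown and 15.04 FPKM in Sp3 knockdown, against 22.7 FPKM in control. Pax6 measured 6.54 FPKM in HDAC2 knockdown and 2.76 FPKM in Sp3 knockdown, against 3.64 FPKM in control. Prom1 (chromosome 5, 44384860 to 44492975 in mm9) measured 9.89 FPKM in HDAC2 knockdown and 1.83 FPKM in Sp3 knockdown, against 2.79 FPKM in control. The 3 genes had the same order of groups, with HDAC2 knockdown highest and Sp3 knockdown lowest, but Prom1 was spread far more than Nes or Pax6. Prom1 relative to Nes was 0.227 in HDAC2 knockdown and 0.121 in Sp3 knockdown, against 0.123 in control, a ratio that was not tested between groups.

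In HDAC2 knockdown the authors' deposited table called Nes (q = 0.0274), Pax6 (q = 0.000122) and Prom1 (q listed as 0) higher. After centring, Prom1 (1.51 ± 0.17, with an adjusted p of 2.37e-17) and Pax6 (0.53 ± 0.19, with an adjusted p of 0.0385) kept their calls, and Nes (0.62 ± 0.35, with an adjusted p of 0.236) lost it. In Sp3 knockdown the authors' deposited table called Nes (q = 5.73e-06) and Prom1 (q = 0.0215) lower, but not Pax6 (q = 0.131). The centred values were -0.46 ± 0.12 for Nes (adjusted p of 0.000453), -0.48 ± 0.22 for Prom1 (adjusted p of 0.0736) and -0.27 ± 0.21 for Pax6 (adjusted p of 0.331). Pax6 shares its deposited locus (chromosome 2, 105376236 to 105537521 in mm9) with the antisense transcript Pax6os1. That transcript was at 0.0642 FPKM in HDAC2 knockdown and listed at 0 in Sp3 knockdown and in control. No other gene of the tables overlaps the loci of the 9.

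**Figure D2:**
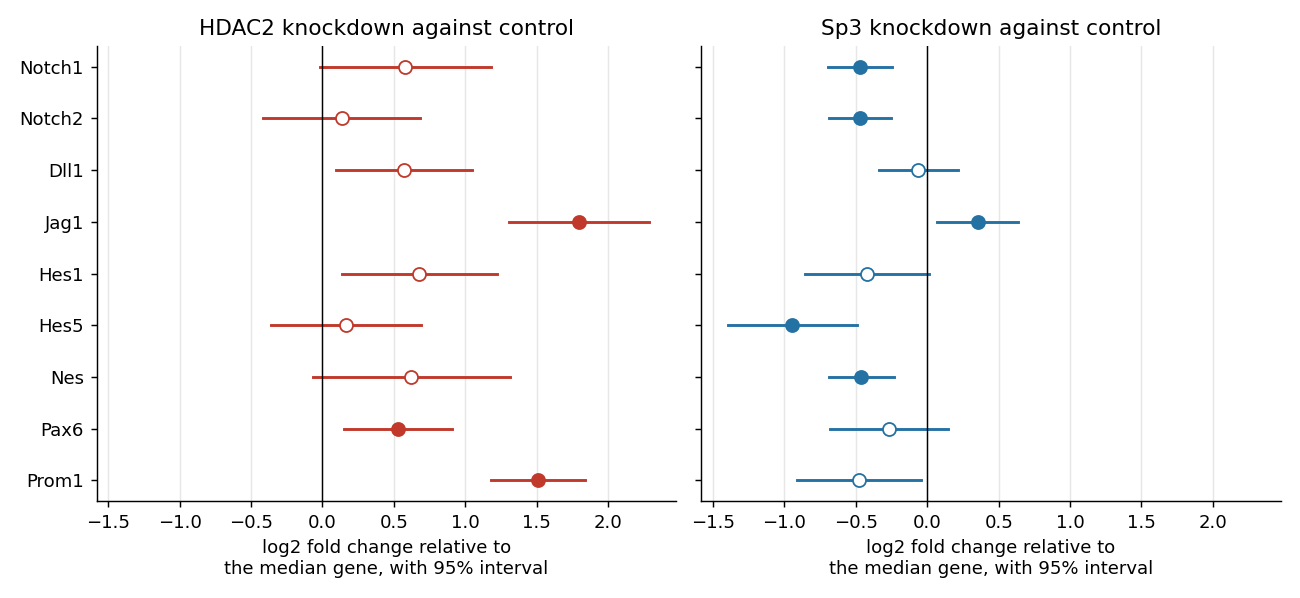
Log2 fold change of the 9 genes relative to the median gene in HDAC2 knockdown (left) and Sp3 knockdown (right), each against control, with the 95% interval from the standard error implied by the authors' test statistic. Filled points have an adjusted p under 0.05, and the vertical line marks the median gene. Jag1 (1.80) and Prom1 (1.51) lie apart from the rest on the left, and Hes5 (-0.94) lies lowest on the right.

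The knockdowns were then set against each other, since a call in only 1 table does not show that they differ. The FPKM in HDAC2 knockdown was 2.08 to 5.42 times that in Sp3 knockdown over the 9 genes, lowest for Notch2 and highest for Prom1. The difference of the centred log2 fold changes was tested with a normal p adjusted over 13277 genes. By this test 7 of the 9 genes were higher in HDAC2 knockdown and 0 were lower, against 7.86% and 6.87% of all genes (14.7% in either direction). This share is descriptive too, given how the 9 were chosen. Prom1 differed by 1.99 ± 0.28 (adjusted p of 8.98e-11) and Jag1 by 1.44 ± 0.29 (adjusted p of 2.16e-05). Hes5 differed by 1.11 ± 0.35 (adjusted p of 0.0159), Hes1 by 1.10 ± 0.35 (adjusted p of 0.0173) and Nes by 1.08 ± 0.37 (adjusted p of 0.0282). Notch1 differed by 1.05 ± 0.33 (adjusted p of 0.0131) and Pax6 by 0.80 ± 0.29 (adjusted p of 0.0388). Notch2 (0.61 ± 0.30, with an adjusted p of 0.182, interval 0.016 to 1.20) and Dll1 (0.64 ± 0.28, with an adjusted p of 0.118, interval 0.087 to 1.19) did not pass. Without centring both passed (Notch2 with an adjusted p of 0.00319 and Dll1 of 0.000973). The calls rest on the normal reference of the authors' own statistic. With a t distribution on 2 degrees of freedom 0 of the 13277 genes passed, 615 had an unadjusted p under 0.05, and 2 of these were among the 9.

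**Figure D3:**
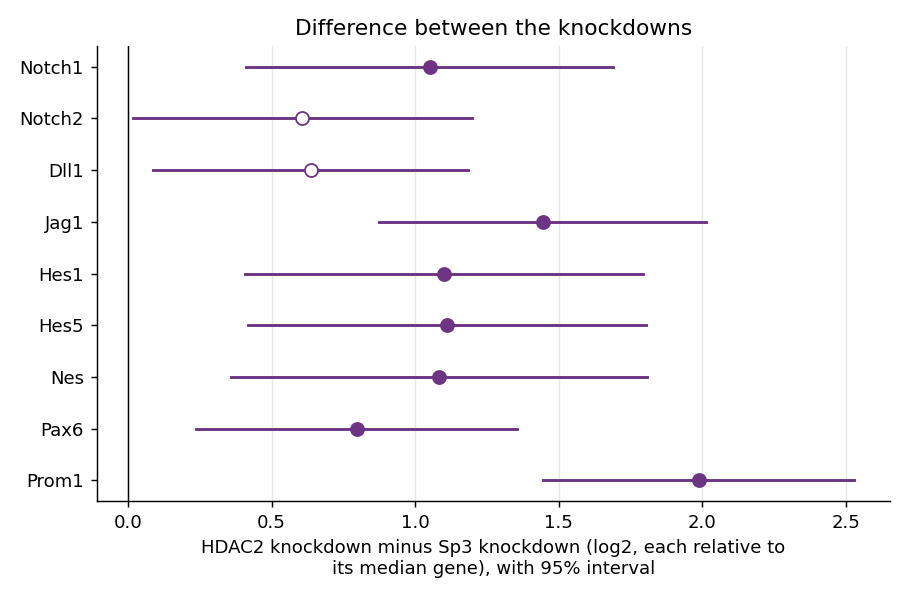
Difference between HDAC2 knockdown and Sp3 knockdown in centred log2 fold change for each of the 9 genes, with its 95% interval. Filled points have an adjusted p under 0.05. All 9 points lie above 0, from 0.61 for Notch2 to 1.99 for Prom1.

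The order of levels, which FPKM allows since it is per transcript length, was led by Nes and Notch1 in every group. In HDAC2 knockdown Jag1, Notch2, Hes1, Dll1, Hes5, Prom1 and Pax6 followed, and the highest level was 6.65 times the lowest. In Sp3 knockdown Notch2, Dll1, Hes1, Jag1, Hes5, Pax6 and Prom1 followed, with a factor of 8.24 between the ends. In control Notch2, Hes5, Hes1, Dll1, Pax6, Jag1 and Prom1 followed, with a factor of 8.14. Jag1 thus stood 3rd in HDAC2 knockdown, 6th in Sp3 knockdown and 8th in control. Without values per library, whether neighbours in these orders differ cannot be tested. Among genes of at least 1 FPKM, Nes was above 84.1% in HDAC2 knockdown and 62.9% in Sp3 knockdown, against 73.5% in control. Jag1 was above 56.6% in HDAC2 knockdown and 25.3% in Sp3 knockdown, against 20.3% in control. Prom1 was above 41.9% in HDAC2 knockdown and 8.62% in Sp3 knockdown, against 15.4% in control.

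Over 6 lists of receptors, ligands, processing enzymes, nuclear effectors, regulators and Hes or Hey targets, 54 genes besides the members were measured. The authors' deposited table tested 44 of them in HDAC2 knockdown and called 18 higher and 1 lower, against 24.6% and 3.6% of all tested genes. It tested 45 in Sp3 knockdown and called 9 higher and 12 lower, against 13.2% and 26.1% of all tested genes. After centring, 11 were higher and 2 lower in HDAC2 knockdown, against 10.2% and 7.59% of all genes. In Sp3 knockdown 13 were higher and 7 lower after centring, against 20.2% and 17.6% of all genes. The median centred log2 fold change was 0.25 in HDAC2 knockdown and -0.0055 in Sp3 knockdown, against medians of -0.0044 and -0.0017 over all tested genes.

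Among receptors and ligands, Notch3, a receptor of mural cells and of some progenitors, measured 8.21 FPKM in HDAC2 knockdown and 3.26 FPKM in Sp3 knockdown, against 3.84 FPKM in control. Its centred value was 0.78 ± 0.24 in HDAC2 knockdown (adjusted p of 0.0113) and -0.10 ± 0.12 in Sp3 knockdown (adjusted p of 0.551). Dll3, a divergent Delta protein, measured 12.7 FPKM in HDAC2 knockdown and 3.48 FPKM in Sp3 knockdown, against 5.98 FPKM in control. It was higher in HDAC2 knockdown (0.76 ± 0.25, with an adjusted p of 0.016) and lower in Sp3 knockdown (-0.65 ± 0.21, with an adjusted p of 0.00639). Jag2, the close relative of Jag1, did not follow it, at 19.4 FPKM in HDAC2 knockdown and 16.4 FPKM in Sp3 knockdown, against 19.3 FPKM in control. The centred value of Jag2 was -0.31 ± 0.26 in HDAC2 knockdown, with an adjusted p of 0.472. Notch4 and Dll4 were not tested by the authors and stayed under 1 FPKM in all groups.

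The nuclear partners of the receptor split. Rbpj, which encodes the DNA-binding partner, measured 9.66 FPKM in HDAC2 knockdown and 2.65 FPKM in Sp3 knockdown, against 4.91 FPKM in control. Its centred value was 0.66 ± 0.25 in HDAC2 knockdown (adjusted p of 0.043) and -0.76 ± 0.14 in Sp3 knockdown (adjusted p of 9.75e-07). The Mastermind coactivator gene Maml2 fell in Sp3 knockdown (-0.87 ± 0.14, with an adjusted p of 5.08e-09), whereas its relative Maml3 rose there (0.92 ± 0.15, with an adjusted p of 4.05e-09). Kat2b, a histone acetyltransferase gene, rose in HDAC2 knockdown (0.76 ± 0.22, with an adjusted p of 0.00435).

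Of the other Hes and Hey genes, 3 of 7 had a test. The targets Hey1 and Hey2 rose in HDAC2 knockdown, by centred values of 0.76 ± 0.24 (adjusted p of 0.0107) and 1.27 ± 0.37 (adjusted p of 0.00556). Hey1 measured 28.9 FPKM in HDAC2 knockdown and 12.2 FPKM in Sp3 knockdown, against 13.7 FPKM in control. Hey2 measured 3.76 FPKM in HDAC2 knockdown and 0.807 FPKM in Sp3 knockdown, against 1.25 FPKM in control. Neither was called for Sp3 knockdown by the authors' deposited table (q = 0.314 for Hey1 and 0.22 for Hey2). Hes6, whose product antagonises Hes1, was called lower for Sp3 knockdown by the authors' deposited table (q = 0.0151), but centring took its adjusted p to 0.0983. Nrarp, a target that feeds back on the receptor complex, fell in Sp3 knockdown (-0.79 ± 0.18, with an adjusted p of 4.96e-05).

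Processing enzymes and regulators included genes that were higher in both knockdowns. Psen2, a catalytic subunit of gamma-secretase, measured 20.7 FPKM in HDAC2 knockdown and 15.7 FPKM in Sp3 knockdown, against 9.42 FPKM in control. Its centred values were 0.82 ± 0.24 (adjusted p of 0.00575) and 0.87 ± 0.13 (adjusted p of 1.41e-09). Dtx4, a Deltex ubiquitin ligase gene, measured 27.2 FPKM in HDAC2 knockdown and 16.2 FPKM in Sp3 knockdown, against 8.54 FPKM in control, with centred values of 1.35 ± 0.27 (adjusted p of 1.19e-05) and 1.05 ± 0.099 (adjusted p of 8.03e-25). The protease gene Adam17 fell in Sp3 knockdown (-0.82 ± 0.12, with an adjusted p of 4.07e-11), and in HDAC2 knockdown its centred value was 0.46 ± 0.24 (adjusted p of 0.2). Fbxw7, whose product marks the Notch intracellular domain for destruction, was the 1 gene of these lists that the authors' deposited table called lower for HDAC2 knockdown (q = 0.003). It measured 53.7 FPKM in HDAC2 knockdown and 83.6 FPKM in Sp3 knockdown, against 84.9 FPKM in control.

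**Figure D4:**
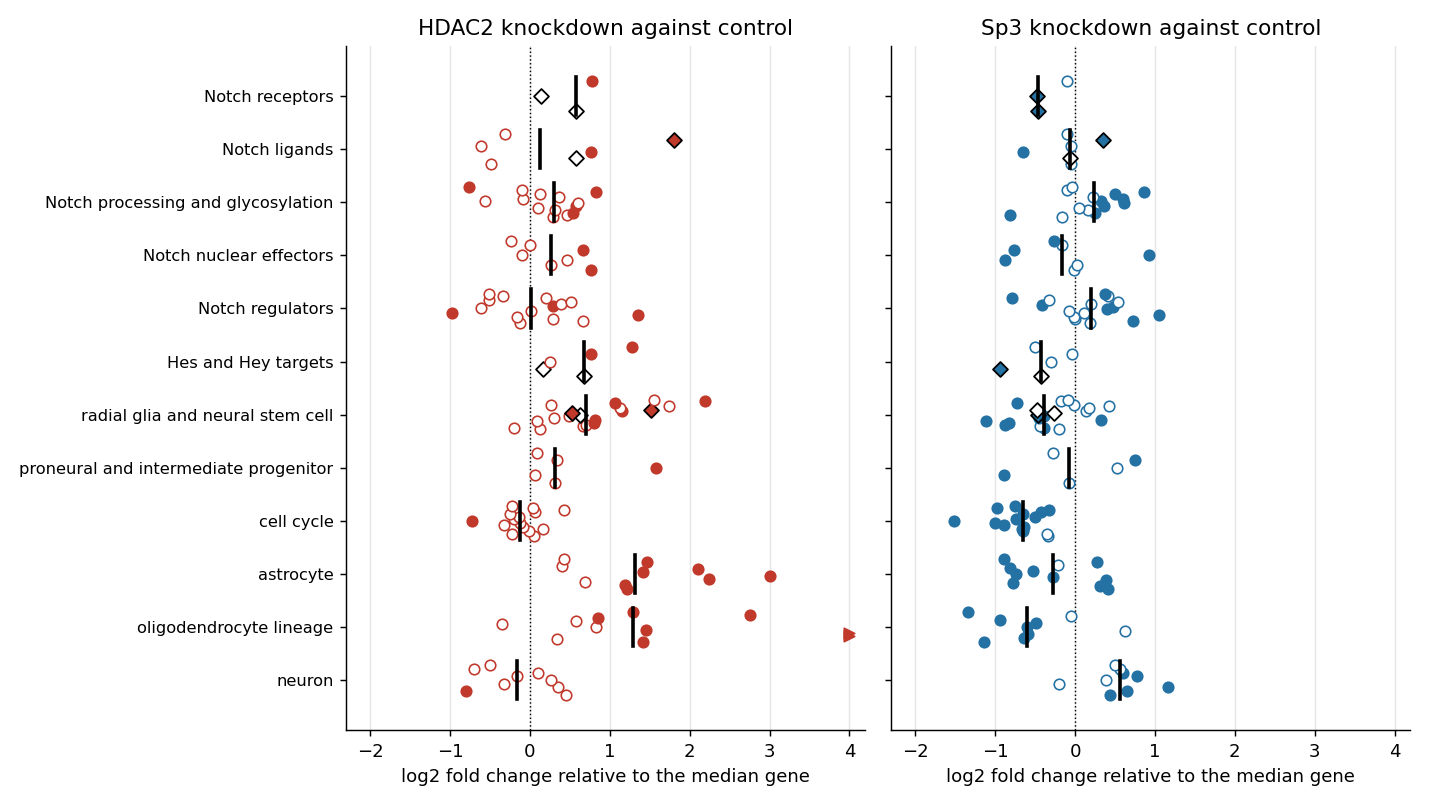
Centred log2 fold change of every tested gene of 12 lists in HDAC2 knockdown (left) and Sp3 knockdown (right), each against control. Points are genes, diamonds with a black edge are the 9 genes described here, filled points have an adjusted p under 0.05, and black bars are list medians. Triangles at the right edge stand for Gpr17 (5.17) and Mag (5.97), which lie beyond the axis. Both rest on low control levels, 0.649 FPKM for Gpr17 and 0.0428 FPKM for Mag, and the standard error of Mag was 1.44. The medians of the astrocyte and oligodendrocyte lists lie farthest right in HDAC2 knockdown (1.32 and 1.29), and the median of the cell cycle list lies farthest left in Sp3 knockdown (-0.66).

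Among the other radial glia and stem cell genes, 16 were tested. Of these the authors' deposited table called 9 higher and 0 lower in HDAC2 knockdown, against 24.6% and 3.6% of all tested genes. In Sp3 knockdown it called 0 higher and 8 lower, against 13.2% and 26.1% of all tested genes. After centring the counts were 5 and 0 in HDAC2 knockdown, against 10.2% and 7.59% of all genes. They were 1 and 7 in Sp3 knockdown, against 20.2% and 17.6% of all genes. Sox2, a stem cell transcription factor gene, measured 84.1 FPKM in HDAC2 knockdown and 17.8 FPKM in Sp3 knockdown, against 32.3 FPKM in control. Its centred values were 1.06 ± 0.26 (adjusted p of 0.000716) and -0.73 ± 0.11 (adjusted p of 1.47e-09). Hopx, a marker of outer radial glia in primates, had a centred value of 0.093 ± 0.19 in HDAC2 knockdown (adjusted p of 0.823) and fell in Sp3 knockdown (-1.12 ± 0.13, with an adjusted p of 1.19e-15). Pdpn, of the same list, measured 21.6 FPKM in HDAC2 knockdown and 7.79 FPKM in Sp3 knockdown, against 7.80 FPKM in control. Its centred values were 1.15 ± 0.24 (adjusted p of 3.6e-05) and 0.13 ± 0.16 (adjusted p of 0.57). The 1 gene called higher in Sp3 knockdown after centring was Lhx2 (0.33 ± 0.10, with an adjusted p of 0.00624). Of 10 proneural and intermediate progenitor genes, which Hes proteins are known to repress in part, 5 were tested. Neurod1 rose in HDAC2 knockdown (1.58 ± 0.30, with an adjusted p of 5.01e-06) and, in Sp3 knockdown, Insm1 fell (-0.89 ± 0.24, with an adjusted p of 0.000774) while Neurod2 rose. Neurog1 and Atoh1 were listed at 0 in all groups.

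Markers of glia had higher sums in HDAC2 knockdown and lower sums in Sp3 knockdown than in control, but the astrocyte list split in Sp3 knockdown. Summed over 12 astrocyte markers, FPKM was 1154 in HDAC2 knockdown and 354 in Sp3 knockdown, against 480.0 in control, and none was at 0. Summed over 12 oligodendrocyte lineage markers it was 429 in HDAC2 knockdown and 130.4 in Sp3 knockdown, against 225 in control, again with none at 0. The summed FPKM of the 9 genes was 149.8 in HDAC2 knockdown and 53.2 in Sp3 knockdown, against 77.2 in control. Sums of FPKM and their ratios, here and for the lists below, are not centred. The median gene was itself shifted by a log2 fold change of 0.32 in HDAC2 knockdown and -0.13 in Sp3 knockdown. As ratios to control, the sums stood in HDAC2 knockdown at 1.94 for the 9 genes, 2.40 for the astrocyte list and 1.90 for the oligodendrocyte list. In Sp3 knockdown they stood at 0.689, 0.738 and 0.579. The authors' deposited table called 8 of 10 tested astrocyte markers and 8 of 11 oligodendrocyte markers higher in HDAC2 knockdown, against 24.6% of all tested genes. In Sp3 knockdown it called 1 of 11 astrocyte markers higher (Acsbg1) and 6 lower, and 0 of 9 oligodendrocyte markers higher and 7 lower. Over all tested genes there, 13.2% were called higher and 26.1% lower. After centring, 7 astrocyte and 7 oligodendrocyte markers were called higher in HDAC2 knockdown and 0 lower, against 10.2% and 7.59% of all genes. In Sp3 knockdown 0 oligodendrocyte markers were then called higher and 7 lower, against 20.2% and 17.6% of all genes. Of the astrocyte markers there, 4 were called higher after centring (Aqp4, Aldh1l1, Slc4a4 and Acsbg1), and 6 lower. The same 4 genes were at a higher FPKM than in control also before centring, for example Acsbg1 at 24.9 FPKM in Sp3 knockdown, against 20.6 FPKM in control. The part of these markers in the results for the 9 genes was not tested.

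Of 15 cell cycle genes the authors' deposited table called 2 higher and 0 lower in HDAC2 knockdown, a smaller share than the 24.6% of all tested genes called higher there. After centring 0 were higher and 1 (Cenpf) was lower in HDAC2 knockdown, against 10.2% and 7.59% of all genes. In Sp3 knockdown 0 were higher and 13 lower, both as deposited and after centring. Of all genes there, 26.1% were called lower as deposited and 17.6% after centring. The summed FPKM of the cell cycle genes was 258 in HDAC2 knockdown and 129.6 in Sp3 knockdown, against 219 in control. Their median centred log2 fold change was -0.12 in HDAC2 knockdown and -0.66 in Sp3 knockdown. The neuronal markers had a summed FPKM of 1147 in HDAC2 knockdown and 1390 in Sp3 knockdown, against 1037 in control. Their median centred log2 fold change was -0.16 in HDAC2 knockdown and 0.56 in Sp3 knockdown. In HDAC2 knockdown 0 of 9 were called higher and 0 lower by the authors' deposited table, against 24.6% and 3.6% of all tested genes. In Sp3 knockdown 5 of 9 were called higher and 1 lower by the authors' deposited table, against 13.2% and 26.1% of all tested genes. After centring, 0 were higher and 1 lower in HDAC2 knockdown, against 10.2% and 7.59% of all genes. In Sp3 knockdown 5 were then higher and 0 lower, against 20.2% and 17.6%. Microglial markers were near absent. Their sum over 10 genes was 2.37 FPKM in HDAC2 knockdown and 1.84 FPKM in Sp3 knockdown, against 2.11 FPKM in control, and Tmem119, C1qa, C1qb, C1qc and Trem2 were listed at 0 in at least 1 group. Of 12 endothelial, pericyte and meningeal markers 8 stayed under 1 FPKM in all groups, and Dcn made up most of the sum of 44.7 FPKM in HDAC2 knockdown and 53.6 FPKM in Sp3 knockdown, against 30.3 FPKM in control. Of 6 ependymal markers Foxj1 measured 5.44 FPKM in HDAC2 knockdown and 2.90 FPKM in Sp3 knockdown, against 1.35 FPKM in control. The list summed to 12.2 FPKM in HDAC2 knockdown and 6.74 FPKM in Sp3 knockdown, against 4.25 FPKM in control, with Tmem212 listed at 0 in Sp3 knockdown.

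The genes most like each member were found as those closest in the pair of centred log2 fold changes, among genes whose control level was within 2-fold of that of the member. With only 3 groups this likeness rests on 2 values per gene, and 3387 to 5545 genes were compared for each member. Nearest to Notch1 were Nudt5 and Ezh2 (distances of 0.030 and 0.038), and nearest to Notch2 were Gabpa and Cks2 (0.0014 and 0.012). Nearest to Hes5 were Nusap1 and Galnt10 (0.040 and 0.047), and nearest to Hes1 were Mybl1 and Sh3d19 (0.019 and 0.026). Jag1 and Prom1 had sparser surroundings, with Hpca at 0.054 from Jag1 and Acss1 at 0.050 from Prom1.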

How the data were processed

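RNA sequencing covered 6 libraries, 2 per group. Per the labels' protocols, total RNA was taken with a column kit and made into libraries with an Illumina TruSeq kit. The tools were Bowtie, TopHat and Cuffdiff and the build was mouse mm9, per the submitters' processing notes. No version, annotation or strand setting is given in the sources used here. The FPKM values were deposited by the authors as 1 value per group. The log2 fold changes, the test statistic (a score), the p-values and the q-values were deposited by the authors in 1 table per knockdown, with 13569 tested genes for HDAC2 and 13619 for Sp3. The control FPKM was identical in both tables for 100% of genes. FPKM keeps no read count, so how deeply each library was read is unknown.

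The sign of the deposited statistic was reversed, as it ran against the fold change. The standard error is the log2 fold change over that statistic, and values over 5 were set aside. Fold changes were centred on the median over genes of at least 1 FPKM in either group, by 0.32 and -0.13, and given a normal p with Benjamini-Hochberg adjustment over all genes. Differences between knockdowns were divided by the square root of the 2 squared standard errors added together, which counts the shared control error in both terms. The procedures were run on simulated fold changes with normal errors of the size of these standard errors. Such a run checks the computation and cannot check whether a normal reference suits 2 libraries per group. Computations used Python 3.11.15, pandas 2.3.3, numpy 2.4.6 and scipy 1.17.1. Promoters and motifs came from RefSeq windows on GRCm38.p6, in which 8 of the 9 genes had an entry. The members and lists were chosen with earlier results of these data known. Named genes are the members, the targets, up to 4 genes of smallest p per list, Notch list genes called in either table, and the 2 genes nearest to each member in its pair of fold changes, of which those of 6 members are printed. Mag, Acsbg1, Aldh1l1, Slc4a4, Lhx2, Notch4, Dll4, Neurog1, Atoh1, Tmem212, Pax6os1 and the microglial genes listed at 0 lie outside that rule and were named after their values were seen. A result on 1 gene of the proneural list is not reported here.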

Additional observations from a re-analysis of the deposited data

How the results depend on the processing

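All 9 genes kept the sign of their fold change against control, and of the difference between knockdowns, under every alternative run. In HDAC2 knockdown the count of the 9 called higher was 7 as deposited and 3 both with centring and with upper-quartile scaling, with Notch1, Dll1, Hes1 and Nes losing their calls. Over all genes centring gave 1380 higher and 1023 lower in place of 3342 and 489, upper-quartile scaling gave 1364 and 1051, and q under 0.01 gave 324 lower. In Sp3 knockdown centring added Jag1 as 1 gene called higher and left 4 lower in place of 6, and over all genes it gave 2736 higher in place of 1801. A minimum absolute log2 fold change of 0.5 left 938 higher and 2167 lower over all genes there. For the difference between knockdowns, the 7 genes became 2 at an adjusted p under 0.01 (648 higher and 571 lower over all genes) and 0 with a t distribution on 2 degrees of freedom (0 and 0 over all genes, 615 at an unadjusted p under 0.05). Without centring 9 of the 9 were higher, Notch2 and Dll1 being added, and over all genes 3528 were higher and 287 lower in place of 1043 and 912. The cause was not tested, apart from the shift that each scaling removes by construction. A pseudocount of 1 lowered the log2 fold change in HDAC2 knockdown of Jag1 to 1.85 and of Prom1 to 1.52. No paired analysis was possible because the tables hold no values per library, and for the same reason no library could be left out.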
